A study of Mus musculus with 5 samples.

Results

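The genes described here are 10 markers of smooth muscle: Acta2, Actg2, Myh11, Tagln, Cnn1, Myocd, Des, Lmod1, Mylk and Cald1. They were taken by gene symbol from the gene list of each library, and 10 of 10 were found among the 31053 listed genes. The data were single-cell RNA counts of whole mouse ovaries (C57BL/6J, untreated) at 2, 3, 4, 5 and 6 wk of age, the period in which the first wave of follicles grows and is lost and puberty begins. The ovaries were dissociated with trypsin and the live cells were sorted before capture, and 1 library stood for each age. A difference between ages is therefore a difference between 2 libraries, with no replicate behind it and no test.

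Smooth muscle cells contract when myosin light chain kinase phosphorylates the light chain of myosin, which then pulls on filaments of smooth muscle actin. Many of the genes for this machinery share a short DNA element, the CArG box, which serum response factor (Srf) binds. Myocardin, the product of Myocd, is a coactivator that joins serum response factor there and is known as a switch of the smooth muscle program. In the ovary, smooth muscle cells lie in the stroma, in the outer theca around growing follicles and in the walls of vessels, where pericytes of capillaries carry part of the same program.

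The members fall into 4 kinds by role, and all are annotated as protein-coding genes (GRCm38, GENCODE vM21). Acta2 (chromosome 19, 34241090 to 34255590, minus strand) and Actg2 (chromosome 6, 83512905 to 83536265, minus strand) encode the alpha and gamma actins of smooth muscle. Myh11 (chromosome 16, 14194535 to 14291372, minus strand) encodes smooth muscle myosin heavy chain, and Mylk (chromosome 16, 34745210 to 35002420, plus strand) encodes the kinase that activates it. The actin-binding proteins are transgelin (Tagln, chromosome 9, 45929619 to 45936058, minus strand), calponin (Cnn1, chromosome 9, 22099216 to 22109630, plus strand), caldesmon (Cald1, chromosome 6, 34598500 to 34775473, plus strand) and leiomodin 1 (Lmod1, chromosome 1, 135324807 to 135368065, plus strand). Desmin (Des, chromosome 1, 75360329 to 75368579, plus strand) forms intermediate filaments of muscle. Myocd lies on chromosome 11 from 65176561 to 65269989 on the minus strand. Cald1 and Mylk also have non-muscle isoforms, which 3' counts per gene do not tell apart. UMIs (unique molecular identifiers, counted once per captured molecule) from stretches that Acta2 and Actg2 share are uncertain between them.

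Promoter windows of 300 bases around the start sites (RefSeq, GRCm38.p6) were searched on both strands for the CArG box and for a near match, in which any base may stand at 1 of its 6 central positions. The windows held 6 of the 10 members (Acta2, Cnn1, Des, Lmod1, Mylk and Cald1). No member window held the exact box, which was present in 1.63% of all 32851 windows, and the window of Acta2 held 2 near matches, where 9.98% of all windows held 1 or more and 0.822% held 2 or more. The following stretches of 30 bases are shown because they carry the element through which myocardin is known to act, in Acta2, in Srf itself and in 2 other contractile genes, Myl9 (myosin regulatory light chain) and Vcl (vinculin). Each is written 5' to 3' on the gene's strand, with the box or near match in capitals.
Acta2, near match, chr19:34255438-34255467, minus strand: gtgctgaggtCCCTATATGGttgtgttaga
Acta2, near match, chr19:34255388-34255417, minus strand: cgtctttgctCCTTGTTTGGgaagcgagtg
Myl9, box, chr2:156775293-156775322, plus strand: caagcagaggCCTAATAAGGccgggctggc
Vcl, box, chr14:20929161-20929190, plus strand: cccactatgcCCTTATAAGGagcgccccgc
Srf, box, chr17:46556225-46556254, minus strand: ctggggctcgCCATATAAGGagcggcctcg
Srf, box, chr17:46556205-46556234, minus strand: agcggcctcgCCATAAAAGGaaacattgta
The first bases of the capitals stand 84 and 34 bases before the RefSeq start site in Acta2, 161 in Myl9, 227 in Vcl, and 82 and 62 in Srf. Both Acta2 stretches lie inside the GENCODE span of the gene given above, which reaches further upstream, to 34255590. A match of letters is not a measured binding site.

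The 5 libraries held 48163 cells and between 93438618 and 144609431 UMIs, with medians of 9056 to 12424 UMIs per cell. The cells were clustered again without the 10 genes and named from other markers, so that the members did not decide their own groups, although genes that vary with them did. Between 29.1 and 36.0% of the cells of a library stayed unnamed, and 273 cell barcodes occurred in 2 or more libraries, of 47890 distinct barcodes. Outside the pericyte-like cells, smooth muscle cells came as 2 groups. The contractile smooth muscle-like group (1215 cells) was made of a cluster led by Myoc (922 cells) and a cluster led by Pcp4 (293 cells), each with 3 of its 4 markers. The perifollicular smooth muscle-like group (2492 cells) was made of clusters led by Ednrb (2083 cells) and by Carmn (409 cells), each with 4 of 4 markers. The pericyte-like group held 866 cells and was kept whole, as named in the first clustering. In its second clustering an Higd1b-led cluster (212 cells) and an Ifit1-led cluster (142 cells) were named pericyte. An Sncg-led cluster (112 cells) was named smooth muscle, and the other clusters stayed unnamed. Values of the whole group mix these cells. Acta2 read 625 CPM in the Higd1b, 416 CPM in the Ifit1 and 16355 CPM in the Sncg cluster. Levels are in CPM, the share that a gene takes of each 1000000 UMIs of a group, with 95% Poisson intervals in parentheses where printed. All intervals cover counting error only, not the spread between animals.

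Among the named groups taken whole, most of the contractile genes were highest in the contractile group, and each smooth muscle group carried the program in a different proportion. Summed over libraries, 8 of 10 members had their highest level there, and the exceptions were Myocd and Cald1. The share of all genes with their highest level there was not computed, so this count only describes the members. At 6 wk Des was also higher in the pericyte-like group (368 against 92.3 CPM). The pericyte-like group is counted whole here. Its Sncg-led cluster, described below, read higher than the contractile group for Acta2, Myh11, Tagln, Des, Lmod1 and Cald1. Myocd was highest in the perifollicular group, at 123 CPM (119 to 128) against 102 CPM (97.0 to 108) in the contractile group. Cald1 was highest in the pericyte-like group, at 2648 CPM against 2235 CPM in the contractile group, and this order held in each of the 5 libraries, with overlapping intervals at 5 wk.

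**Figure D1:**
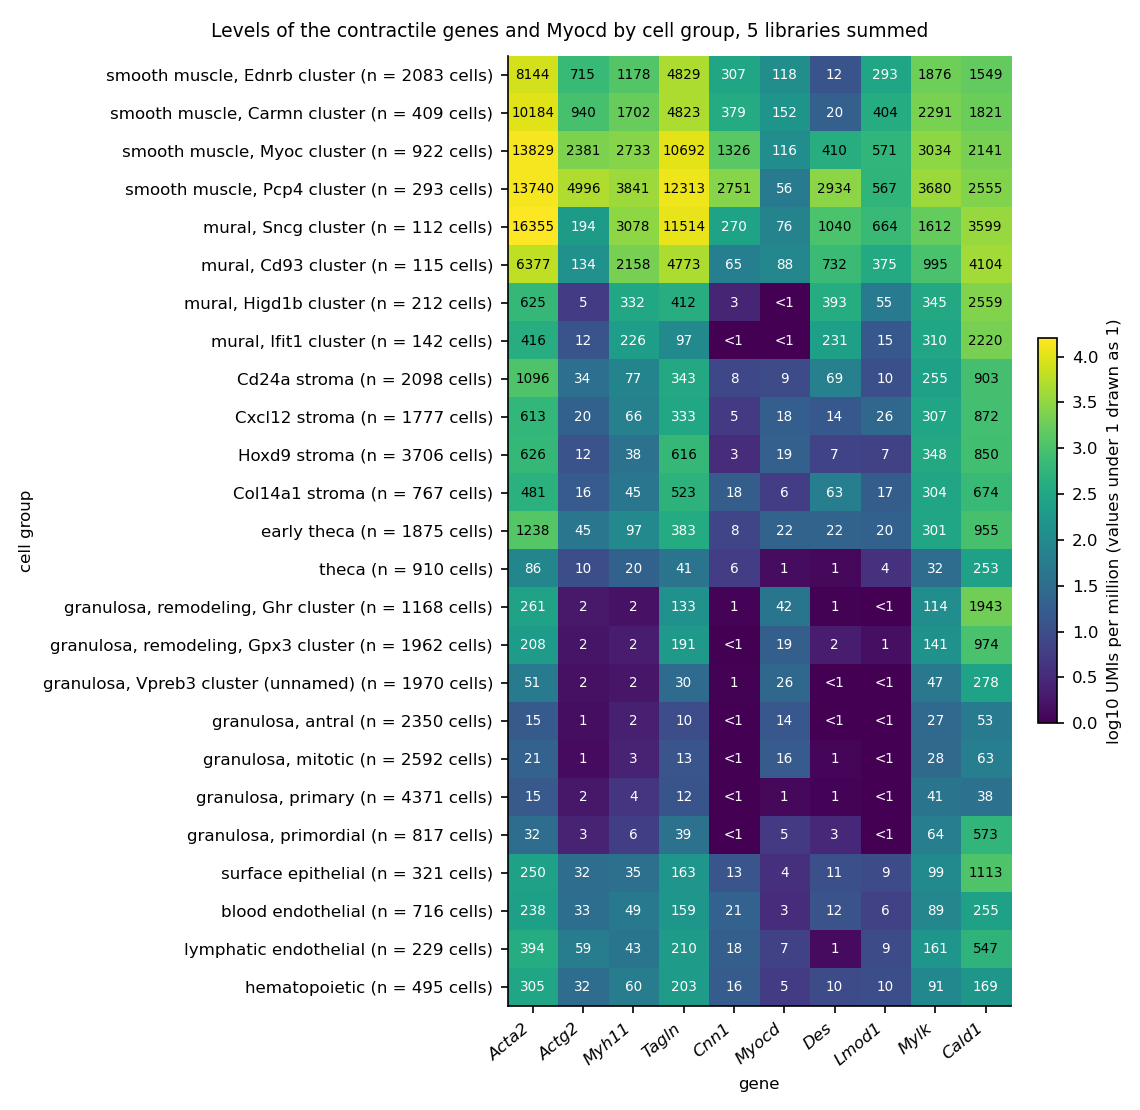
Levels of the 10 genes (columns) in each cell group (rows), as log10 of CPM over the 5 libraries summed, with the number printed in each cell of the map and values under 1 drawn as 1. The top 4 rows are the smooth muscle clusters, where Acta2 reaches 13829 CPM in the Myoc cluster, and the granulosa rows are near the floor for all genes but Myocd, Cald1, Acta2, Tagln and Mylk.

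Because cells that do not make a gene can still carry its free RNA, hematopoietic-like cells (495 cells) were used as a reference level. There Acta2 stood at 612, 139, 618, 123 and 215 CPM in the 2, 3, 4, 5 and 6 wk libraries, and Tagln at 271, 116, 599, 65.7 and 108 CPM. The background was thus highest at 2 and 4 wk. Every member was past 2-fold higher in the contractile group than in hematopoietic-like cells in every library (10 of 10, against 9.25% of all genes tested). The members were chosen as markers of smooth muscle, so this count was fixed by their choice and only describes their levels over the reference. Myocd and Des also had few UMIs in hematopoietic-like cells and could reach the minimum of summed UMIs only through the contractile group.

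Within the smooth muscle, 5 of 10 members were past 2-fold higher in the contractile than in the perifollicular group in each of the 5 libraries (Actg2, Myh11, Tagln, Cnn1 and Des), and 0 were lower. Of all 11780 genes tested, 1.24% were past 2-fold higher in every library and 0.424% lower. The median over members of the ratio was 1.94, against 1.02 over all genes. The count depended on the clustering: under 4 other clusterings it was 3 (Actg2, Cnn1 and Des), with no share of all genes computed there. In 3 of these the contractile group held 289 to 296 cells and most cells of the Myoc cluster counted as perifollicular.

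Acta2 varied little between ages in the contractile group, with 13850, 12793, 14315, 13892 and 14026 CPM at 2, 3, 4, 5 and 6 wk. In the perifollicular group it stood at 7476, 7300, 9013, 8914 and 8824 CPM. The groups did not overlap, and the contractile level was 1.56 to 1.85 times the perifollicular one in every library. The share of all genes without overlap was not computed, here or for the members below, so this only describes the genes named. Acta2 was detected in nearly all cells of both groups even after each cell was thinned to 2000 UMIs (99.9% and 99.2% of cells), against 60.3% of pericyte-like and 9.61% of hematopoietic-like cells. Cells with fewer UMIs were left out of these shares, 14 contractile, 21 perifollicular, 96 pericyte-like and 89 hematopoietic-like.

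Actg2, the second smooth muscle actin, separated the groups further. It measured 3396, 3384, 3339, 3161 and 1899 CPM in the contractile group from 2 to 6 wk and 433, 523, 904, 1062 and 733 CPM in the perifollicular group. All contractile values lay above all perifollicular values, and the ratio was 7.84 in the 2 wk library and 2.59 in the 6 wk library. Cnn1, which binds actin and inhibits the myosin ATPase, ran in parallel, with 1799, 2497, 1939, 1482 and 955 CPM in the contractile group. Its perifollicular levels were 237, 359, 435, 371 and 249 CPM, and the ratio was 7.59 at 2 wk and 3.84 at 6 wk. For both genes the ratio was largest in the 2 and 3 wk libraries. The contractile group held 87, 113, 41, 42 and 10 Pcp4 cells from 2 to 6 wk. In the Myoc cluster alone the Actg2 ratio was 4.98, 5.59, 3.21, 2.51 and 2.6.

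Myh11, the motor protein of the set, stood at 2847, 3458, 3403, 3288 and 2347 CPM in the contractile group and at 766, 1183, 1625, 1585 and 1143 CPM in the perifollicular group. Tagln stood at 10878, 11818, 13108, 11660 and 9110.3 CPM against 4088, 4563, 5750, 5468 and 4479 CPM. Neither gene overlapped between the groups, which only describes these genes, since the share of all genes was not computed. The smallest ratios were 2.05 for Myh11 and 2.03 for Tagln, both at 6 wk. Lmod1, Mylk and Cald1 were also higher in the contractile group in every library, but by smaller folds: 1.63 to 2.46 for Lmod1, 1.48 to 1.92 for Mylk and 1.32 to 1.51 for Cald1.

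Of the members, Des had the largest ratio between the contractile and perifollicular groups in each library. It measured 1357, 1621, 1026, 1068 and 92.3 CPM there from 2 to 6 wk, and 20.1, 12.9, 18.2, 15.7 and 6.11 CPM in the perifollicular group. The hematopoietic-like cells held 13.1, 2.53, 28.5, 5.84 and 2.6 CPM. The perifollicular level was low, below that of hematopoietic-like cells at 4 wk and above it at the other ages. The ratio between the smooth muscle groups was 67.6 at 2 wk and 15.1 at 6 wk. A Des UMI was found in 61.6% of contractile cells (median of 10204 UMIs), in 6.30% of perifollicular cells (median of 8238 UMIs) and in 2.42% of hematopoietic-like cells.

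Myocd, the coactivator, had another order than the structural genes. It stood at 90.4, 81.1, 107, 99.2 and 128 CPM in the contractile group and at 109, 119, 115, 126 and 134 CPM in the perifollicular group. The contractile level was the lower in each library, with ratios of 0.83 (0.71 to 0.96), 0.68 (0.56 to 0.82), 0.93 (0.78 to 1.10), 0.79 (0.68 to 0.91) and 0.96 (0.85 to 1.07) from 2 to 6 wk, so that at 4 and 6 wk the difference was within counting error. In the Myoc cluster alone the interval of the ratio held 1 in every library. The low level therefore lay in the Pcp4 cluster, with 55.9 CPM against 116 CPM in the Myoc cluster.

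**Figure D2:**
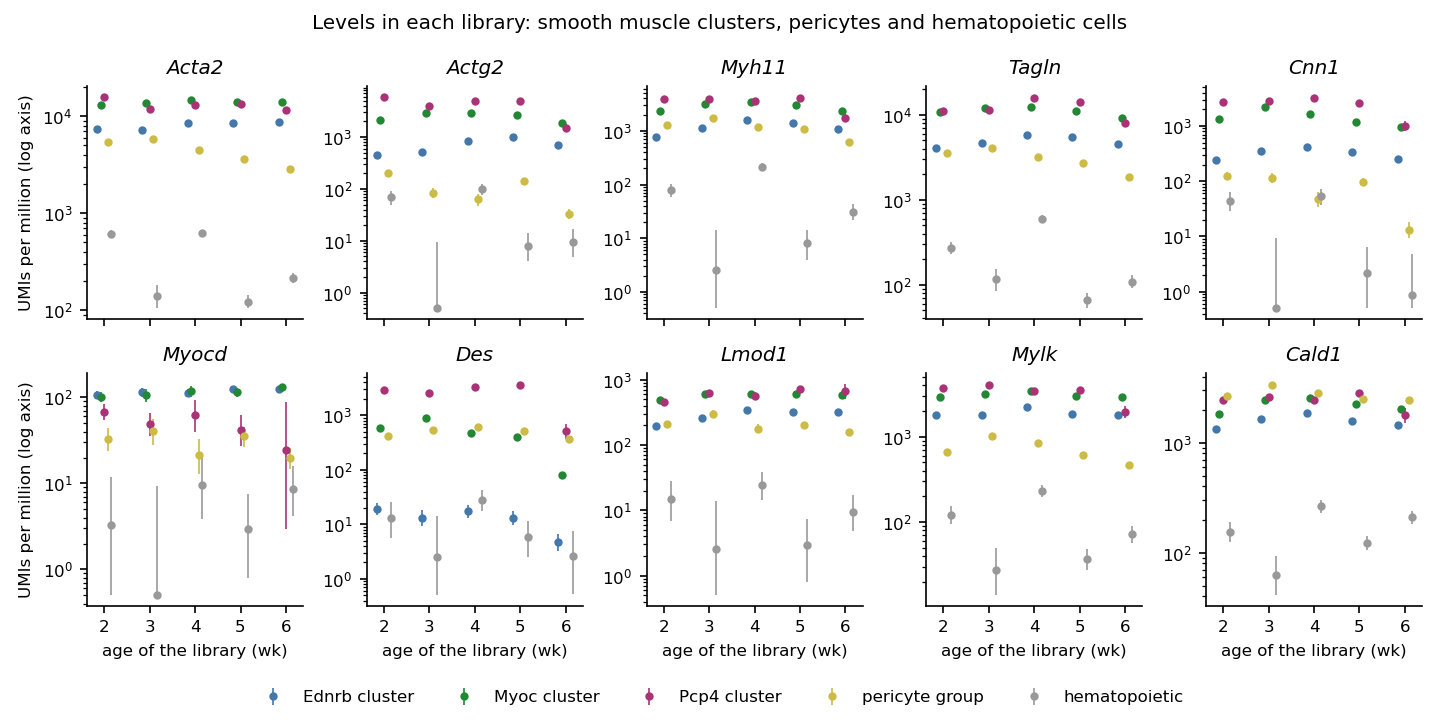
Levels of each gene in each library (log axes, CPM) against the age of the library, for the Ednrb, Myoc and Pcp4 smooth muscle clusters, the pericyte-like group and hematopoietic-like cells; points are summed UMIs, bars are 95% Poisson intervals, and levels of 0 are drawn at the lower edge. Des is lower in the Ednrb cluster than in the other smooth muscle clusters shown and is highest in the Pcp4 cluster, where only 10 cells stand behind the 6 wk point. Myocd is lower in the Pcp4 cluster than in the other smooth muscle clusters.

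Among the Myoc, Pcp4, Ednrb and Carmn clusters, the members took the largest share of UMIs in the Pcp4 cluster from 2 to 5 wk. The shares there were 4.90, 4.37, 5.07 and 5.02%. At 6 wk the share was 2.88% in the Pcp4 and 3.42% in the Myoc cluster. Summed over libraries, Myocd was lowest in the Pcp4 cluster of these clusters. The Myoc and Pcp4 clusters were compared in the 2 to 5 wk libraries, since the 6 wk library held 10 Pcp4 cells. There Des was past 2-fold higher in the Pcp4 cluster in every library (4.87, 2.88, 6.99 and 9.23 times), the only 1 of 10 members, against 1.56% of all genes higher and 1.66% lower. Summed over libraries, Actg2 stood at 4996 CPM in the Pcp4 and 2381 CPM in the Myoc cluster, Cnn1 at 2751 and 1326 CPM, and Myh11 at 3841 and 2733 CPM, while Acta2 was alike at 13740 and 13829 CPM. Myocd in the Pcp4 cluster was 0.67, 0.46, 0.52 and 0.37 times its level in the Myoc cluster from 2 to 5 wk. Among 20 further contractile genes, 2 were past 2-fold higher in the Pcp4 cluster in those libraries, Smtn and Pln. Smtn, the actin-binding smoothelin, was 2.45 to 5.00 times higher. Pln, the inhibitor of the calcium pump of the sarcoplasmic reticulum, was 5.10 to 46.1 times higher. Pln had only 5 to 9 UMIs in the Myoc cluster of a library. It could therefore reach the minimum of summed UMIs only through the Pcp4 cluster, so its call was fixed and was not read as a result.

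The same 20 genes were set between the contractile and perifollicular groups, and 4 of them were past 2-fold higher in every library (Smtn, Pln, Jph2 and Hspb6) and 0 lower. Smtn was 2.01 to 4.12 times higher, and Pln had 1 or 2 UMIs in the perifollicular cells of each library. Pln could therefore reach the minimum of summed UMIs only through the contractile group. Its call in the count of 4 was fixed and was not read as a result. Jph2, which ties the plasma membrane to the calcium store, was 2.24 to 4.24 times higher, and Hspb6, a small heat shock protein of muscle, 2.17 to 9.80 times. Of 9 regulators of the program, 0 were past 2-fold in either direction in every library. Srf, the partner of myocardin, had ratios between 0.99 and 1.28 across the libraries, while Klf4, a repressor of smooth muscle genes in cultured cells, had ratios of 0.41, 0.35, 0.53, 0.47 and 0.77 from 2 to 6 wk, lower in the contractile group each time. Its summed levels were 494 CPM in the contractile and 1013.5 CPM in the perifollicular group.

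Around vessels, the members divided the mural cells into sets with much and with little of the contractile program. Against pericyte-like cells, the contractile group was past 2-fold higher in every library for 8 of 10 members, all but Des and Cald1 (3.70% of all genes were higher). The perifollicular group was higher for Actg2 and Myocd only (2.95% of all genes) and lower for Des (8.44%). Pericyte-like cells in turn were past 2-fold higher than blood endothelial-like cells in every library for 8 of 10 members, all but Actg2 and Cnn1 (6.19%). The pericyte-like group also held 40 cells of an Hsd3b1-led cluster, of which 60.0% were called doublets, and 34 cells of a Dcn-led stromal cluster, and over the whole group 3.81% were called doublets.

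The Sncg-led cluster of this group (112 cells) had 6 of 10 markers of smooth muscle, and Pln was the third of its leading genes. Its Acta2 level of 16355 CPM and Tagln level of 11514 CPM were higher than in the contractile group (13809 and 11061 CPM). So were its levels of Myh11 (3078 against 2986 CPM), Des (1040 against 986 CPM), Lmod1 (664 against 570 CPM) and Cald1 (3599 against 2235 CPM). Its Actg2 level of 194 CPM and Cnn1 level of 270.4 CPM were lower than in the contractile group (2977 and 1651 CPM). Mylk (1612 against 3181 CPM) and Myocd (76.1 against 102 CPM) were lower as well. The Higd1b-led cluster (212 cells), with 6 of 7 pericyte markers, had 625 CPM of Acta2, 412 CPM of Tagln and 5.45 CPM of Actg2, but 393 CPM of Des and 2559 CPM of Cald1. Relative to the Sncg cluster, Acta2 was 0.038 (0.036 to 0.041), Des 0.38 (0.34 to 0.42) and Cald1 0.71 (0.68 to 0.75). Des and Cald1 thus spanned all mural clusters, while both actins, Tagln, Cnn1 and Myocd were concentrated in part of them. Myocd gave 76.1 CPM in the Sncg cluster and 87.7 CPM in a Cd93-led cluster of 115 cells that stayed unnamed, and a single UMI each in the Higd1b and Ifit1 clusters (0.68 and 0.81 CPM).

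Between the 2 and 6 wk libraries, part of the contractile genes were lower in pericyte-like cells at 6 wk. In this comparison 3 of 10 members were past 2-fold lower (Actg2, Myh11 and Cnn1), and 0 higher, against 3.73% of all genes lower and 4.19% higher. Myh11, at 0.487 times, was no longer past 2-fold with the members among the variable genes, without integration and as a mean over cells. Acta2 read 5460, 5790, 4479, 3655 and 2854 CPM from 2 to 6 wk, a ratio of 0.52 (0.51 to 0.54) between the last and the first. Myh11 read 1272, 1717, 1178, 1080 and 620.1 CPM. Both were highest at 3 wk and lowest at 6 wk. Actg2 read 206, 83.7, 62.8, 145 and 33.1 CPM (ratio 0.16, 0.12 to 0.20, and 0.0944 with doublets left out or 0.25 without integration). The hematopoietic-like cells, at 69.0, 0, 99.1, 8.03 and 9.54 CPM, passed the pericyte-like level at 4 wk. By contrast, Cald1 (0.91) and Des (0.88) differed little between the same libraries.

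Some members were also lower at 6 wk inside mural clusters, though each rests on few cells and the members differed between clusters. Past 2-fold lower were 2 of 9 members tested in the Sncg cluster (7.65% of all genes) and 1 of 7 in the Cd93 cluster (6.98%). In the Higd1b cluster it was 1 of 6 (4.74%), and in the Ifit1 cluster 1 of 5 (3.60%). In the Sncg cluster (19 cells at 2 wk, 31 at 6 wk), Acta2 was 0.71 (0.68 to 0.75) and Actg2 0.078 (0.035 to 0.16) times the 2 wk level, from 80 and 9 UMIs of Actg2. Des there was 1.63 (1.31 to 2.04) times higher. In the Cd93 cluster (19 and 29 cells) Acta2 was 0.55 (0.51 to 0.60) and Myh11 0.47 (0.40 to 0.54) times the 2 wk level. In the Higd1b cluster (34 and 68 cells) Acta2 was 0.64 (0.52 to 0.77) times and Tagln 0.21 (0.17 to 0.27) times, and Myh11 1.14 (0.84 to 1.56) times. The Higd1b and Ifit1 clusters, which were low in Acta2, held 34 and 21 of the 140 pericyte-like cells at 2 wk. At 6 wk they held 68 and 47 of 253, and the part of this mix in the whole-group values was not tested. At 5 wk, 0 of 10 members in the whole group were past 2-fold against 2 wk (3.05% of all genes higher, 2.83% lower).

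In the perifollicular group, few members were past 2-fold between ages. At 5 wk, Actg2 was 2.45 (2.32 to 2.59) times and Myh11 2.07 (1.98 to 2.16) times the 2 wk level, 2 of 10 members past 2-fold, where 2.10% of all genes were. At 6 wk the ratios were 1.69 (1.60 to 1.79) and 1.49 (1.43 to 1.56), with Lmod1 at 1.69 and Acta2 at 1.18. None of these passed 2-fold then, and Des was the only member to do so, at 0.30 (0.21 to 0.44), where 4.00% of all genes were lower and 2.96% higher. The Actg2 ratio at 6 wk rested on the clustering: it was 0.99 to 1.0 in the 3 clusterings that put most cells of the Myoc cluster into the perifollicular group, and 1.38 where the libraries were merged without integration. Des was low in both libraries, though above the hematopoietic-like level, and Mylk was 0.975 times the 2 wk level.

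In the contractile group, 0 of 10 members were past 2-fold between 5 and 2 wk (2.36% of all genes higher, 3.75% lower). At 6 wk only Des was, at 0.068 (0.060 to 0.076) times the 2 wk level, where 6.34% of all genes were lower and 2.64% higher. The share of contractile cells with a Des UMI was 81.0, 77.9, 63.2, 58.9 and 23.3% from 2 to 6 wk. In the Myoc cluster alone Des read 595, 896, 465, 396 and 81.5 CPM, and the Pcp4 cluster, where Des was highest, had 87 cells at 2 wk and 10 at 6 wk. Actg2 (0.56) and Cnn1 (0.53) were lower and Myocd (1.42, 1.23 to 1.65) higher at 6 wk without passing 2-fold. The Pcp4 cluster was higher than the Myoc cluster for Actg2 and Cnn1 and lower for Myocd, summed over libraries. Its part in these ratios was not tested. Per 100 UMIs of Acta2, the Myoc cluster held 16.7 and 13.55 of Actg2 at 2 and 6 wk, against 24.5 and 13.54 in the group. For Cnn1 these were 10.4 and 6.77, against 13.0 and 6.81, and for Myocd 0.78 and 0.93, against 0.65 and 0.92. The 5 and 6 wk libraries were counted with another release of the counting software than the 2 to 4 wk libraries, and age and software cannot be told apart in that split.

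**Figure D3:**
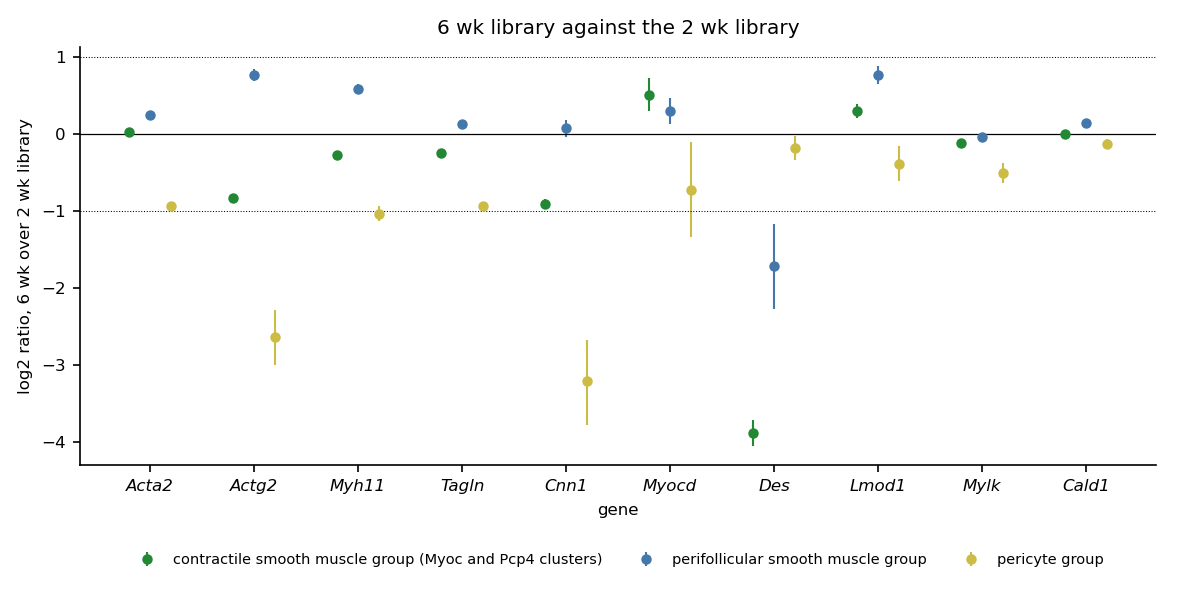
Log2 ratio of the 6 wk over the 2 wk library for each gene in the contractile (green), perifollicular (blue) and pericyte-like (yellow) groups, with 95% conditional intervals for counting error; dotted lines mark 2-fold. The pericyte-like points lie below 0 for all 10 genes, the perifollicular points of all but Des and Mylk lie above it, and Des is lowest in the contractile group.

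Theca cells, the steroid-making layer outside the follicle, arise in the stroma, and in the data the contractile genes were lower in the steroidogenic group. In theca-like cells (910 cells), 8 of 10 members were past 2-fold lower than in early theca-like cells (1875 cells) in every library, all but Actg2 and Cnn1, against 5.33% of all genes lower and 4.39% higher. Acta2 read 1548, 1386, 977, 1146 and 961 CPM in early theca-like cells from 2 to 6 wk. In theca-like cells it read 347, 50.6, 16.6, 80.3 and 71.1 CPM, below the hematopoietic-like level of the same library each time. That level can exceed the free RNA, so whether these cells hold Acta2 of their own was not read. Cald1 stayed higher, at 799 to 1147 CPM in early theca-like and 194 to 388 CPM in theca-like cells, and above the hematopoietic level of 63.2 to 263 CPM in each library. Of the 20 further contractile genes, 19 could be tested between both groups and 9 were lower in theca-like cells in every library.

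Stromal cells carried an intermediate level of Acta2, Tagln, Mylk and Cald1 and little of the rest. Compared with the perifollicular group, 8 of 10 members were past 2-fold lower in every library both in Cxcl12 stroma-like cells and in Hoxd9 stroma-like cells, where 2.03% and 1.86% of all genes were. The stromal groups differed in their course. In Cd24a stroma-like cells Acta2 read 1976, 1322, 739, 619 and 599 CPM from 2 to 6 wk, and 6 of 10 members were past 2-fold lower at 6 than at 2 wk, against 4.09% of all genes. In Hoxd9 stroma-like cells Acta2 read 419, 682, 743, 862 and 712 CPM and Tagln 297, 753, 889.9, 895 and 707 CPM, lowest in the 2 wk library for both genes. There 6 of 10 members were past 2-fold higher at 5 than at 2 wk (3.02% of all genes) and 1, Cnn1, lower (4.14%), while at 6 wk 2 were higher (Tagln and Lmod1; 3.91% of all genes) and Cnn1 lower (4.43%). Cnn1 had few UMIs in Hoxd9 stroma-like cells, and its levels at 2 and 5 wk were below those of hematopoietic-like cells. In Cxcl12 stroma-like cells 0 of 9 members tested were past 2-fold between the 2 and 5 wk libraries (3.82% of all genes higher, 3.99% lower). The hematopoietic-like level of Acta2, 612 CPM at 2 wk and 618 CPM at 4 wk, was above the Hoxd9 stroma-like level at 2 wk and near the Cd24a and Hoxd9 stroma-like levels at 4 wk, and its part in these values was not tested.

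In granulosa cells, which surround and nourish the oocyte, Actg2, Myh11, Cnn1, Des and Lmod1 were below the hematopoietic-like level in each named group of the summed libraries. Cald1 and Myocd were above it in part of the groups. Acta2 was at 15.4 CPM in antral-like cells (2350 cells), against 305 CPM in hematopoietic-like cells. In remodeling-like cells (3130 cells) it read 24.8, 28.8, 265, 247 and 194 CPM from 2 to 6 wk, above the hematopoietic-like level of its library at 5 wk (123 CPM) and below it at 2, 3 and 4 wk, with overlapping intervals at 6 wk. After thinning, 25.2, 22.7 and 21.1% of these cells held an Acta2 UMI at 4, 5 and 6 wk, against 11.5, 7.03 and 9.52% of hematopoietic-like cells, so no order was read where the shares and the levels disagree. Cald1 was at 53.0 CPM in antral-like and 1320 CPM (1309 to 1331) in remodeling-like cells, against 169 CPM (157 to 182) in hematopoietic-like cells. After thinning to 2000 UMIs, 72.9% of remodeling-like cells, 57.3% of primordial-like cells, 7.82% of antral-like cells and 12.8% of hematopoietic-like cells held a Cald1 UMI.

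Cald1 was past 2-fold higher in remodeling-like than in antral-like cells in every library, but not in antral-like against primary-like cells. In remodeling-like cells it read 128, 294, 1603, 1155 and 1281 CPM from 2 to 6 wk, on 78, 135, 1309, 747 and 861 cells, and in antral-like cells 16.7, 9.64, 90.5, 62.8 and 46.3 CPM. The ratio was 7.63, 30.5, 17.7, 18.4 and 27.7. Summed over libraries it was 24.9, and 8.53 with the Vpreb3-led cluster counted as antral-like or 9.85 at a lower resolution of the clustering. Every antral-like value and the remodeling-like value at 2 wk were below the hematopoietic-like level of the same library (154, 63.2, 263, 123 and 209 CPM). Tagln and Mylk were also past 2-fold higher in remodeling-like than in antral-like cells in each of the 5 libraries, 3 of 10 members in all, against 2.19% of all genes higher. With hematopoietic-like levels subtracted, and lower values set to 0, the count was 0. Cald1 could not be counted there, since at 2 wk it was 0 in both groups and had no ratio. In primordial-like cells Cald1 read 599, 612, 655, 471 and 410.5 CPM, 5.88 to 32.7 times the level in primary-like cells. It was the only member past 2-fold in every library between these groups, as were 3.22% of all genes.

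Remodeling-like cells did not carry the contractile genes in the proportions of smooth muscle. Per 100 UMIs of Acta2 they held 0.87 UMIs of Myh11, against 21.6 in the contractile group, 14.9 in the perifollicular group, 25.7 in pericyte-like and 19.6 in hematopoietic-like cells. They held 582 UMIs of Cald1 per 100 of Acta2, against 16.2 in the contractile and 55.6 in hematopoietic-like cells. After thinning, 0.096% of them held 5 or more of the 10 genes, against 99.0% of contractile, 83.2% of perifollicular, 45.1% of pericyte-like and 2.22% of hematopoietic-like cells.

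Myocd was above the hematopoietic-like level in several granulosa groups from 4 wk on. In remodeling-like cells it read 31.3 (28.6 to 34.1), 27.2 (24.2 to 30.3) and 26.2 (23.5 to 29.1) CPM at the last 3 ages. In hematopoietic-like cells of those libraries it read 9.50 (3.82 to 19.6), 2.92 (0.80 to 7.48) and 8.68 (4.16 to 16.0) CPM. The intervals did not overlap at any of these ages. At 2 and 3 wk there were 0 and 2 Myocd UMIs in the 78 and 135 remodeling-like cells, where a count of 0 allows up to 3.72 CPM at 2 wk. Mitotic granulosa-like cells read 0.44, 2.19, 25.5, 23.2 and 15.5 CPM from 2 to 6 wk, above hematopoietic-like cells at 4 and 5 wk and within their interval at 6 wk. Antral-like cells read 0.81, 5.74, 28.3, 17.7 and 7.61 CPM, above hematopoietic-like cells at 4 and 5 wk and within their interval at 6 wk. From 3 UMIs at 2 wk and 99 at 5 wk, the ratio of 5 over 2 wk in antral-like cells was 21.9 (7.27 to 108). With so few UMIs at 2 wk, Myocd could reach the minimum of summed UMIs only by being higher at 5 wk, so its call was fixed. In that comparison 2 of 5 members tested were past 2-fold higher (Myocd and Cald1) and 0 lower, where 3.42% of all genes were higher and 3.64% lower. Actg2, Myh11, Cnn1, Des and Lmod1 had too few UMIs to be called in either direction. The count was therefore not read as a result for the members. Cald1 (3.75, 2.86 to 5.00) was below the hematopoietic-like level in both libraries. With that level subtracted and lower values set to 0, 1 member, Myocd, was past 2-fold, over a 2 wk level of 0. Cald1 had no ratio there.

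The level of Myocd differed between granulosa groups of the same libraries. These groups mix stage and cell cycle. The antral-like group included a Ccnb2-led cluster of 584 cells, with 3 of 5 antral markers and Cenpa and Cdc20 among its leading genes. That cluster held 157 Myocd UMIs per 100 of Acta2, against 88.9 in the whole antral-like group. Acta2 was low there, with 126 UMIs in the cluster. Such proportions, here and below, follow Acta2 as well as Myocd and do not measure the Myocd level. The primary-like group included an Mcm4-led cluster of 886 cells. Primary-like cells, at 0.17, 0.44, 3.16, 2.30 and 2.80 CPM, were the lowest from 3 wk on. At 4 and 5 wk, where antral-like cells were above the hematopoietic-like level, they held 8.97 and 7.69 times the level of primary-like cells. High granulosa levels were read in the Ghr-led cluster of remodeling-like cells, at 42.9, 43.1 and 41.7 CPM from 4 to 6 wk. An unnamed Vpreb3-led cluster read 30.3 and 33.6 CPM at 4 and 6 wk. It held 43.1, 62.1 and 70.2 Myocd UMIs per 100 of Acta2 from 4 to 6 wk. The mitotic Hmmr-led cluster held 93.9, 126 and 106, and the clusters were not ranked. The CPM levels given for the Ghr and Vpreb3 clusters were below those of both smooth muscle groups. In thinned cells, a Myocd UMI was found in 4.39% (3.69 to 5.16) of remodeling-like, 2.43% (1.85 to 3.14) of antral-like, 0.21% (0.094 to 0.39) of primary-like, 0.74% (0.15 to 2.14) of hematopoietic-like and 19.7% of perifollicular cells. Without thinning, the shares were 22.3% of remodeling-like cells (median of 12556 UMIs) and 4.04% of hematopoietic-like cells.

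**Figure D4:**
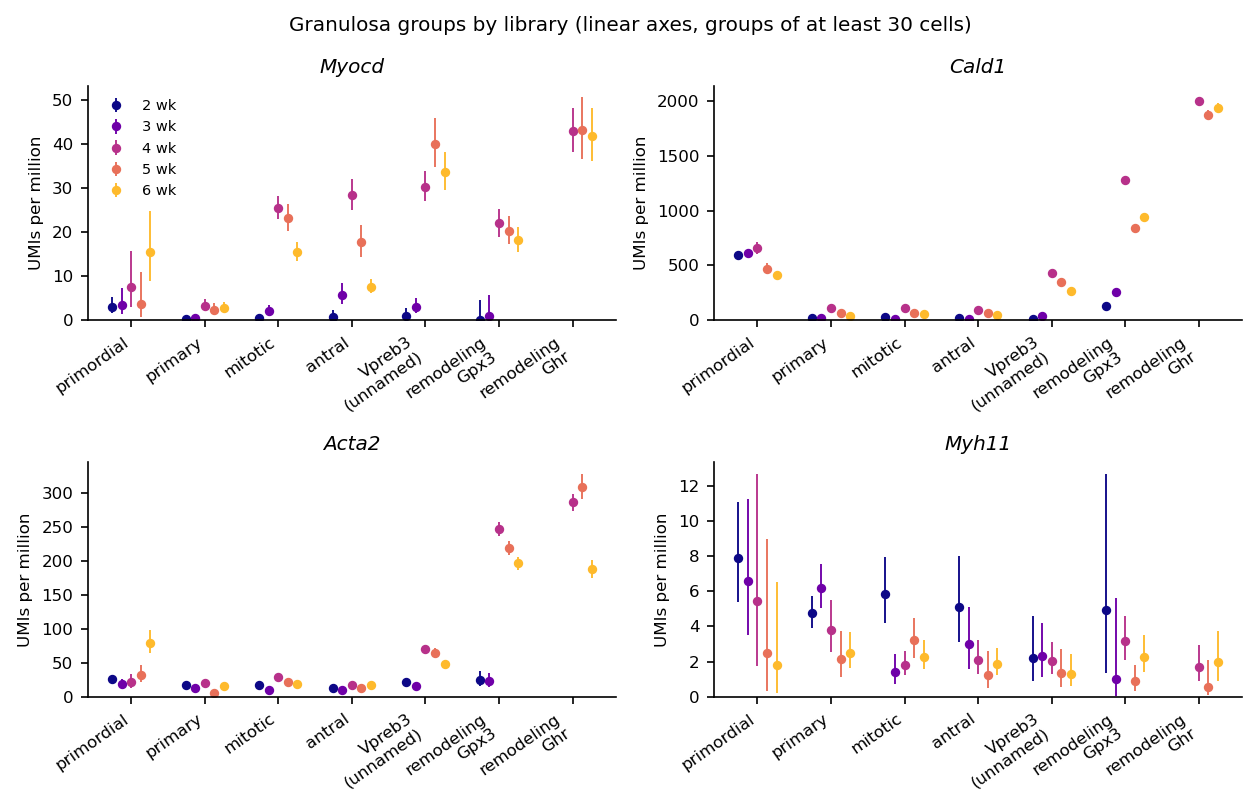
Levels of Myocd, Cald1, Acta2 and Myh11 (linear axes, CPM) in granulosa groups of at least 30 cells, with colours for the 2 to 6 wk libraries and bars for 95% Poisson intervals. Myocd lies above 15 CPM in mitotic-like cells and the Vpreb3, Gpx3 and Ghr clusters from 4 wk on, Cald1 is highest in the Ghr cluster at 1872 to 2004 CPM, and Myh11 stays under 10 CPM in all groups.

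Remodeling-like cells that held a Myocd UMI (698 cells, median of 14807 UMIs) were set beside those that did not (2432 cells, median of 12009 UMIs). Acta2 stood at 289 CPM in the first and 205 CPM in the second, Cald1 at 1421 and 1283 CPM, Tagln at 160 and 174 CPM, and Myh11 at 1.43 and 2.15 CPM. In the perifollicular group, cells with a Myocd UMI (1328 cells, median of 9660 UMIs) had 9116 CPM of Acta2, 835 CPM of Actg2 and 1402 CPM of Myh11. Those without (1164 cells, median of 6927 UMIs) had 7322, 604 and 1010 CPM. The cells with a UMI were the deeper ones in both groups, and the part of depth in these differences was not tested.

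The likeness of genes was described by the Pearson correlation of log2(CPM + 1) over 96 points of cell group and library, which share libraries, free RNA and the clustering. Acta2 and Tagln were the most alike pair of members (r = 0.96), followed by Lmod1 and Myh11 (r = 0.95). Acta2 reached 0.93 with Mylk and Lmod1 and 0.92 with Myh11. Myocd stood apart from the genes of the apparatus: its closest member was Mylk (r = 0.74) and its most distant was Des (r = 0.50). Among 14975 genes, members left out, those closest to Myocd were Nexn (r = 0.84), which encodes an actin-binding protein of muscle, then Ccdc3 (0.81), Sytl2 (0.79), Hrct1 (0.76) and Fbxl22 (0.75). Nexn read 306 CPM in the contractile, 250 CPM in the perifollicular and 89.9 CPM in the pericyte-like group, and 79.5 CPM in the Ghr-led cluster of remodeling-like cells.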

How the data were processed

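The deposited files held raw UMI counts per gene and cell for 5 libraries, 1 per age (3' kit v3.1 of 10x Genomics). The authors made these counts with Cell Ranger on mm10; the file headers name release 3.1.0 for the 2 to 4 wk and 6.0.1 for the 5 and 6 wk libraries, while the submitters' notes name 3.1.0 for each, and Seurat 4.1.0. Number of animals per library is not given in the sources used here.

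All deposited cells were integrated with anchors and clustered in Seurat 5.3.0 (R 4.3.3; 2000 variable genes, 1990 after the 10 members were left out; 30 components, 20 neighbours, resolution 1), then granulosa, mesenchymal and pericyte-like cells were clustered again. A cluster was named where at least 3 of its markers were detected (in 10% of cells and 1.5-fold); no member was used. Doublets called by Scrublet (scanpy 1.11.5; 162 to 555 per library) were kept and removed as an alternative. UMIs were summed per library and group and divided by the group's total. Ratios were counted as past 2-fold for genes whose UMIs summed to 50 or more in the compared groups, between groups only where this held in every library with 30 cells in both. With 1 library per age no test was made; intervals are exact Poisson, Clopper-Pearson and conditional intervals (95%), and the limit of a count of 0 is 3 counts. For shares, cells were thinned to 2000 UMIs and shallower cells left out. Counts were simulated for perifollicular smooth muscle at 6 over 2 wk (9826 genes). There, 192 of 200 changed genes came out on the right side and 95.5% of intervals of unchanged genes covered the true value. The simulated counts were Poisson draws without spread between cells or libraries. Such coverage was therefore built in, and it checks the calculation of the intervals only.

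The named genes were the 10 members, 20 further contractile genes, 9 regulators, 12 non-muscle and striated relatives, the leading 10 genes of each smooth muscle and pericyte cluster and the 10 genes most like Myocd (at least 200 UMIs). Members and lists were chosen with earlier results of these data known. Alternatives covered the clustering, doublets, cell filter, scale, thresholds, background and each library left out; 3 were added after seeing the data.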

Additional observations from a re-analysis of the deposited data

Results flagged for a closer look

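Actg2 and Myh11 differed between the 6 and 2 wk libraries in opposite directions in perifollicular smooth muscle-like and pericyte-like cells. Actg2 was 1.69 times the 2 wk level in the perifollicular group and 0.16 times in the pericyte-like group, and Myh11 was 1.49 and 0.487 times. With 1 library per age the difference between the groups was not tested. Under clusterings that place most cells of the Myoc-led cluster in the perifollicular group, the Actg2 ratio there was 0.99 to 1.0, so the opposite direction of Actg2 was not seen in those. Myh11 in pericyte-like cells was not past 2-fold in 3 of the alternatives.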

How the results depend on the processing

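No paired analysis was possible because each age has 1 library and the labels give no replicate numbers. Of the values of the main comparisons under alternatives, 100 stayed within 1.5 times (for counts) or within their counting interval, and 18 did not. The share of all genes past the fold was not computed under the alternatives. A fold of 1.5 or a minimum of 1 UMI lets more genes of any kind pass. The counts below therefore show only how the reported counts move, and are not results about the members. Members past 2-fold between the contractile and perifollicular groups numbered 5 as reported and 3 with members left among the variable genes, without integration, and at resolutions 0.6 and 1.4; Actg2, Cnn1 and Des were among them each time. For perifollicular cells at 6 over 2 wk the count of 1 (Des) was 0 without integration, with a minimum of 200 UMIs and with hematopoietic levels subtracted, and 3 at a fold of 1.5. For pericyte-like cells it was 6 in place of 3 at a fold of 1.5, and Myh11 was not among them with members among the variable genes, without integration and as a mean over cells. For contractile cells at 5 over 2 wk it was 2 (Myocd and Des) in place of 0 without integration. For antral-like cells at 5 over 2 wk it was 7 with a minimum of 1 UMI, 1 with 200 UMIs, 1 (Myocd) with hematopoietic levels subtracted, and 4 with the Vpreb3 cluster added, in place of 2. With subtraction, Myocd at 2 wk and Cald1 at both ages were set to 0, so that count cannot be read as a fold. The Cald1 ratio of antral-like cells (3.75) was 9.25 with members among the variable genes, 15.3 at resolution 0.6 and 13.6 with the Vpreb3 cluster. Between remodeling-like and antral-like cells, 3 members were past 2-fold, and 0 with hematopoietic levels subtracted. For Cald1 that call was fixed, since its 2 wk levels were set to 0 in both groups. For the other members the cause was not tested. Actg2 in perifollicular cells at 6 over 2 wk (1.69) turned to 0.992 with members among the variable genes and at resolution 1.4, and was 1.0 at resolution 0.6 and 1.38 without integration. Leaving out each library in turn gave 5 to 5 members between the smooth muscle groups, 8 to 8 with their highest level in the contractile group, and 3 to 4 between remodeling-like and antral-like cells, where Acta2 joined without the 2 wk library and Des without the 3 wk library. Depth limits the comparison of Myocd with hematopoietic-like cells, which held 0 to 10 Myocd UMIs in a library.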

Other observations

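Among the non-muscle relatives of the members, Tagln2, the non-muscle transgelin, read 67.7 CPM in the contractile and 63.7 CPM in the perifollicular group, against 465 CPM in pericyte-like and 451 CPM in hematopoietic-like cells, while Tagln was lower in these than in both smooth muscle groups. The cytoplasmic actins fell in the same group order as Acta2, with Actb at 9840 CPM in the contractile, 7748 CPM in the perifollicular and 6526 CPM in the pericyte-like group, and Actg1 at 2918, 2670 and 1197 CPM. Prkg1, the kinase through which cyclic GMP relaxes smooth muscle, read 41.5 CPM in the contractile, 25.9 CPM in the perifollicular and 77.7 CPM in the pericyte-like group. Rock1, the kinase that restrains myosin phosphatase, read 134, 147 and 365 CPM.

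Pln had 2 separate high points, at 281 CPM in the Sncg-led mural cluster and 47.8 CPM in the Pcp4 smooth muscle cluster, with 36.0 CPM in primary granulosa-like cells and 2.80 CPM in the Myoc cluster. Cald1 read 1113 CPM in surface epithelial-like cells (321 cells), above its hematopoietic-like level of 169 CPM. Cnn1 in Hoxd9 stroma-like cells was 0.41 times its 2 wk level at 5 wk, while 6 other members were past 2-fold higher there. Cnn1 rested on few UMIs: 1.07 and 0.21 per 100 Acta2 UMIs at 2 and 5 wk, of 4302 and 2825 Acta2 UMIs. Its level was below the hematopoietic-like level in both libraries, so no direction was read.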
